A study of Mus musculus with 38 samples.

Results

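The regions described here are stretches of mouse liver chromatin that carried acetylated lysine 27 of histone H3 (H3K27ac) in the list of livers fasted for 24 h and in neither of the lists of fed livers and livers fasted for 10 h. They were chosen by position alone: a region of the 24 h list was kept when it had not 1 base in common with any region of the other lists. Of 32103 regions in the 24 h list, 2567 met this rule, which is 8%, and together they covered 1.09 Mb. They are called 24 h only regions below.

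H3K27ac is laid down by acetyltransferases such as p300 and CBP and marks promoters and enhancers that are in use. In fasting, the liver is exposed to glucagon, which acts through cAMP and protein kinase A to phosphorylate CREB, the cAMP response element binding protein, and to glucocorticoids, which bring the glucocorticoid receptor (GR) to DNA. Both factors are known for driving genes of gluconeogenesis in hepatocytes, the main cell type of liver.

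The mice were C57BL/6. Livers were taken from animals with free access to food, after 10 h of fasting or after 24 h of fasting, and each of these H3K27ac groups held 3 libraries. CREB and phospho-CREB (CREB carrying the activating phosphate) were mapped in fed and in 24 h fasted liver, with 3 samples in each group. Hepatocytes isolated from mouse liver by collagenase perfusion gave CREB sites without hormone (1 sample), after 1 h with 10 nM glucagon (2 samples) and after 1 h with 10 nM glucagon and 1.7 uM corticosterone (2 samples). The last of these conditions also gave GR sites (2 samples). These 8 lists of factor sites played no part in choosing the 24 h only regions. Whole liver also holds cells other than hepatocytes, and the lists cannot tell which cells a liver region came from. The labels state neither age nor sex of the mice.

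Each group is represented by 1 deposited list, so no value per library, no spread between replicates and no test between feeding states could be computed. The 11 lists used hold 278566 regions, and the read depth behind them is unknown. The intervals given with shares are 95% Wilson intervals, and those of differences are Newcombe intervals. Both cover counting error only and treat neighbouring regions as independent, which they are not. The lowest z-score, the authors' measure of how far a region stands above its surroundings, was 10.9 for fed, 7.72 for 10 h and 8.61 for 24 h. If the scores are on 1 scale, which is not stated, a region with a z-score between 8.61 and 10.9 could be listed at 24 h but not in the fed state.

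The 24 h only regions were narrow and weak. Their median width was 389 bp (95% interval of the median 380 to 400), against 1033 bp for the 24405 regions of the 24 h list that met both other lists. The median of the authors' highest tag density within a region was 7.10 (6.96 to 7.17), against 18.6 in that shared class. Their median z-score was 10.2 (10.2 to 10.4), against 28.6. Values of this kind bear on whether a region enters a list, although the filters used are not given. They are thus tied to the rule and are given as a description. The other partial classes lay between: the 3959 regions shared with the 10 h list alone had medians of 464 bp, density 8.80 and z-score 11.3. The 1172 regions shared with the fed list alone had medians of 512 bp, 9.32 and 12.7.

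**Figure D1:**
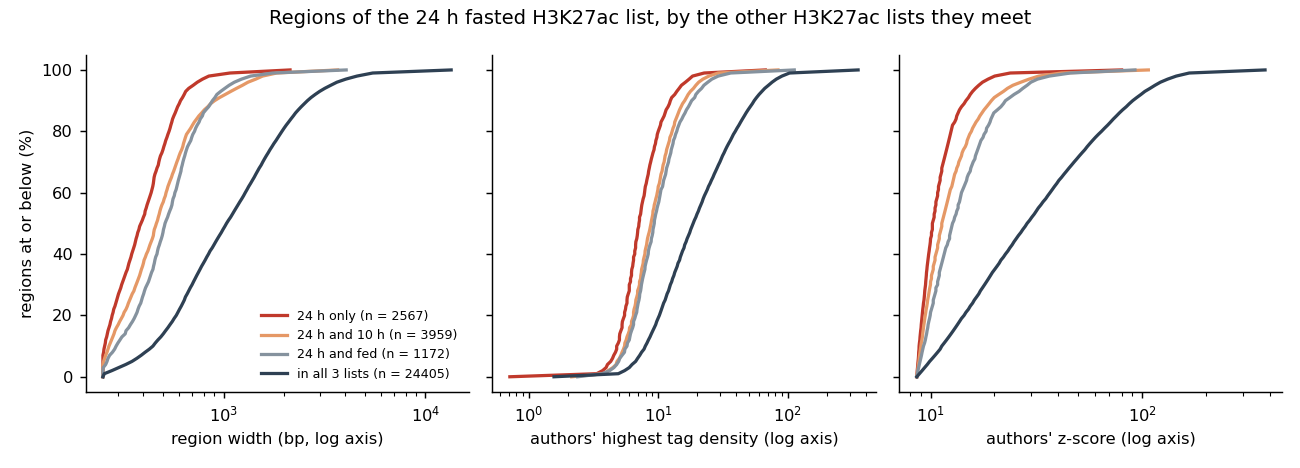
Cumulative share of regions (vertical axis, percent) against region width, the authors' highest tag density and the authors' z-score (log axes) for the 4 classes of the 24 h H3K27ac list. The curve of the 24 h only regions lies to the left in every panel over most of its length, with medians of 389 bp, 7.10 and 10.2.

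Few 24 h only regions were prominent in their own list. None was among the 1000 densest regions, and the best ranks reached were 1427 by density, 3254 by z-score and 4021 by width, out of 32103. By z-score, 53 of the 2567 exceeded 20 and 12 exceeded 30. By width, 31 exceeded 1000 bp. A z-score below 10.9, the lowest value in the fed list, was found in 1568 of the 24 h only regions (61.1%) and in 8.32% of the regions shared by all 3 lists. The other 999 regions (38.9%) were at or above it.

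The widest of them, which was also the one with the highest z-score, lay at chr17:29230569-29232701 (mm9, as are all positions here). It spanned 2133 bp with density 37.8 and z-score 80.0, and the nearest fed and 10 h regions were 14529 and 6437 bp away. Sites of 6 of the 8 factor lists fell in it. GR was there with a density of 28.6, rank 389 among 11892 GR sites, and CREB was in both liver lists and in all 3 hepatocyte lists. The next widest, chr10:60789567-60791315, was 1749 bp wide with density 29.9 and z-score 47.2. It held only an untreated hepatocyte CREB site of low density (8.97, rank 24755 of 47596).

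At the border of the rule, the differences were of a few bases. A pair of 24 h only regions, chr10:23644084-23644542 and chr5:5360158-5360646, touched a 10 h region with 0 bases between them. A further one, chr9:121815395-121815823, was 1 base from a fed region. On the other side, chrX:10117538-10117894 shared 3 bases with another list and was left out, as were chr10:77755077-77755346 with 6 shared bases and chr13:23522955-23523211 with 7. In all, 16 of the 24 h only regions had a gap of at most 10 bases, and 6 of the regions left out shared at most 10.

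Many 24 h only regions were neighbours of acetylated chromatin in the other states. The median distance to the nearest fed or 10 h region was 4596 bp. Of the 2567, 670 (26.1%) lay within 500 bp of such a region, 292 of them of both lists, 290 of the 10 h list only and 88 of the fed list only. Another region of the 24 h list also lay within 500 bp for 450 of these 670. At the far end, 411 regions (16.0%) were more than 50000 bp from any fed or 10 h region. These isolated regions had a lower median density, 5.74 against 8.04 within 500 bp, while the median z-scores were 10.1 and 10.3.

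The 24 h only regions were mostly apart from each other. With regions joined when less than 10 kb apart, 2102 of the 2567 stood alone, 332 formed 166 pairs, and the largest group held 7. By chromosome, their share of the 24 h list ran from 6.41% on chromosome 4 (5.44 to 7.54%) to 10.4% on X (8.63 to 12.5%), where 101 of 971 regions were 24 h only.

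Most 24 h only regions held no CREB, phospho-CREB or GR site. At least 1 site of the 8 lists was found in 541 of the 2567 (21.1%, 19.5 to 22.7%), against a background of 63.7% over all regions of the 24 h list. The share was 42.8% in the class shared with the 10 h list alone, 34.4% in that shared with the fed list alone and 73.0% in the class of all 3 lists. Of the 541 regions with a site, 409 had hepatocyte sites only, 98 had liver and hepatocyte sites, and 34 had liver sites only. For each of the 8 lists the share among 24 h only regions was below that of the whole 24 h list.

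In liver, CREB sites of fasted mice fell in 108 of the 24 h only regions (4.21%, 3.50 to 5.05%, background 14.8%). CREB sites of fed mice fell in 96 (3.74%, 3.07 to 4.55%, background 17.4%). The fasted share was thus the higher among 24 h only regions and the lower over the whole list, although the intervals of the shares among 24 h only regions overlap. Both liver lists met in 72 regions, which is 66.7% of those with a fasted site and 75% of those with a fed site. In the class of all 3 H3K27ac lists the corresponding values were 87.2% and 73.0%. A fasted site without a fed site was present in 36 of the 24 h only regions (1.40%) and a fed site without a fasted site in 24 (0.935%). In the larger class of all 3 lists the counts were 544 (2.23%) and 1374 (5.63%). Both shares were thus lower in the 24 h only regions.

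Phospho-CREB was rare. Its fed list met 31 of the 24 h only regions (1.21%, 0.852 to 1.71%, background 5.22%) and its fasted list 24 (0.935%, 0.629 to 1.39%, background 3.00%). Together they reached 38 regions, and all 38 also held a liver CREB site, as did 98.4% of such regions in the class of all 3 lists. Of the 24 with a fasted site, 9 were on chromosome X or Y, which held 108 of the 2567 regions. In the whole 24 h list, 23.4% of the 1072 regions on these chromosomes held such a site, against the 3.00% over all chromosomes.

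In isolated hepatocytes, CREB sites were more often met. Untreated cells had a site in 360 of the 24 h only regions (14.0%, 12.7 to 15.4%, background 53.8%), glucagon-treated cells in 300 (11.7%, 10.5 to 13%, background 43.2%) and cells with glucagon and corticosterone in 429 (16.7%, 15.3 to 18.2%, background 55.4%). The order of the 3 lists among 24 h only regions was that of their background shares. These lists differ in length, with 47596, 28229 and 42090 sites, so the order of the shares cannot be read as more or less binding.

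GR sites of hepatocytes with both hormones fell in 66 of the 24 h only regions (2.57%, 2.03 to 3.26%, background 7.95%). The share was 2.39% in the class shared with the fed list alone and 7.55% in that shared with the 10 h list alone. Of the 66, 62 (93.9%) also held a CREB site of the same hormone treatment, close to the 92.2% in the class of all 3 lists. A fasted liver CREB site was found in 22 of the 66 (33.3%) and in 3.44% of the 24 h only regions without GR, a difference of 29.9 points (19.7 to 41.9). For fed liver CREB the shares were 19.7% and 3.32%, a difference of 16.4 points (8.53 to 27.5). Liver CREB went with GR in the class of all 3 lists too, with fasted CREB in 45.5% of regions with GR and 14.8% without, and fed CREB in 42.0% and 18.8%.

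**Figure D2:**
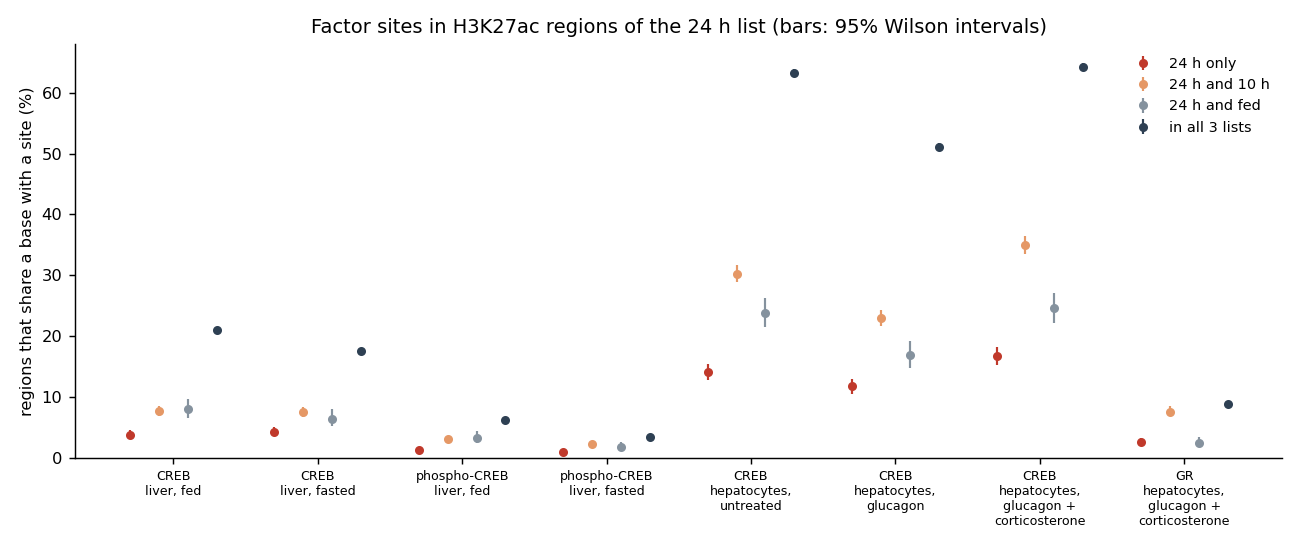
Share of H3K27ac regions that have at least 1 base in common with a site (vertical axis, percent) for the 8 factor lists (horizontal axis) and the 4 classes of the 24 h list; points are shares and bars 95% Wilson intervals. The 24 h only regions have the lowest share in 7 of the lists and are level with the class shared with fed in the GR list (2.57% and 2.39%).

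A wide region has more room for a site, so the classes were compared again at like width. Among regions of at most 500 bp, 18.4% of the 24 h only regions held a site of any list (16.8 to 20.2%), against 31.0% of those shared with fed alone, 40.3% of those shared with 10 h alone and 53.4% of those in all 3 lists. The order of the classes was the same at this width and between 500 and 750 bp, where the 24 h only regions had 27% and those shared with fed alone 38.3%. It was not so above 750 bp, where the 24 h only class had 99 regions: 38.4% of them held a site (29.4 to 48.2%), against 35.6% (29.4 to 42.5%) of those shared with fed alone. Signal strength and distance from other acetylated regions also moved with the share. The 999 regions at or above the lowest fed z-score held a site in 28.6% (25.9 to 31.5%) and the 1568 below it in 16.3% (14.5 to 18.2%).

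Among the 100 of the 24 h only regions with the highest z-scores, 55.0% held a site (45.2 to 64.4%, background 63.7%). CREB of glucagon and corticosterone was in 46.0% of these 100 (background 55.4%). GR was in 14.0% (background 7.95%) and fasted liver CREB in 14.0% (background 14.8%). The intervals were wide (8.53 to 22.1% for the latter pair). Fed liver CREB was in 7 of the 100 (3.43 to 13.7%, background 17.4%). These 100 were picked by z-score, whereas the backgrounds are of the whole 24 h list. At or above the lowest fed z-score, GR was in 3.80% of 24 h only regions and 10.3% of those shared with 10 h alone. It was in 3.23% of those shared with fed alone and 9.45% of those in all 3 lists. By distance, 25.2% of the 24 h only regions within 500 bp of a fed or 10 h region held a site (22.1 to 28.6%). The share was 8.27% (5.98 to 11.3%) in those more than 50000 bp away. The drop was confined to that last class among the 4 distance classes compared, since the classes between had 21.4% and 23.7%.

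**Figure D3:**
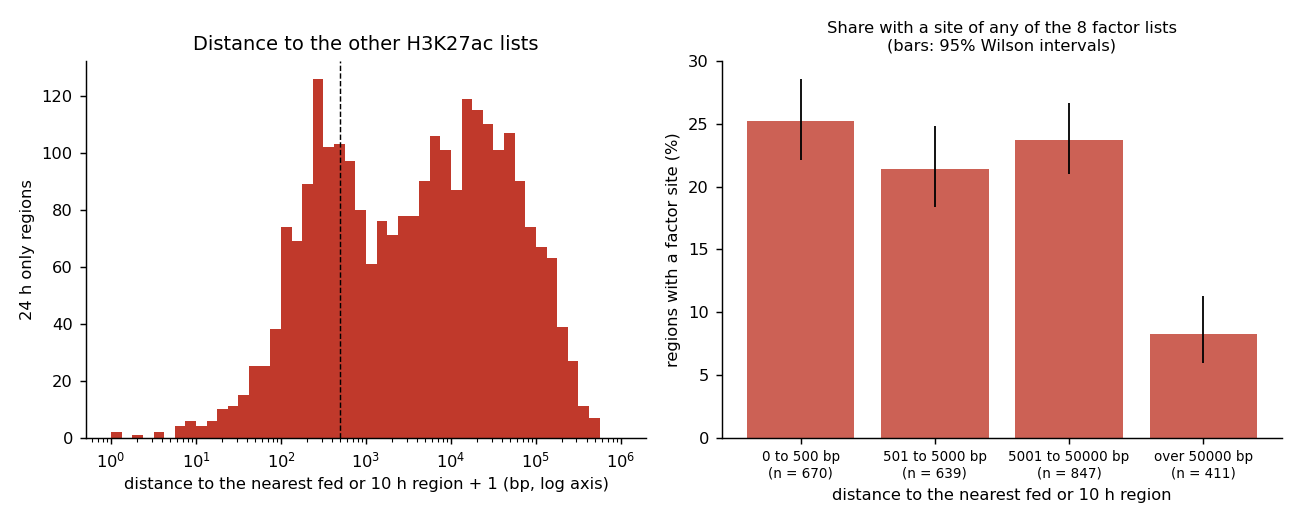
Left, number of 24 h only regions (vertical axis) by distance to the nearest fed or 10 h H3K27ac region plus 1 (bp, log axis), with 500 bp marked by the dashed line; right, share of regions with a site of any factor list (percent, bars from 0, with 95% Wilson intervals) in 4 classes of distance. Of the 2567 regions 670 lie at or below 500 bp, and the share falls to 8.27% only beyond 50000 bp.

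The most like classes are the regions found in the fed list only and in the 10 h list only. The fed list held 1011 regions that met neither other list (3.38% of 29917), with a median width of 380 bp, and the 10 h list held 18890 (39.5% of 47777), with a median of 400 bp. The comparison shares no regions between classes, but the lists have different lowest z-scores.

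Against fed only regions, 24 h only regions had more fasted liver CREB and more GR. The fasted CREB list met 4.21% of 24 h only and 1.88% of fed only regions, a difference of 2.33 points (1.07 to 3.41), where the whole fed list had a background of 15.2%. GR sites met 2.57% and 1.19%, a difference of 1.38 points (0.352 to 2.24), where the background in the fed list was 7.90%. Fed liver CREB met 3.74% and 3.56%, a difference of 0.179 points (-1.31 to 1.45), where the background in the fed list was 18.3%. For phospho-CREB of fed and fasted liver the differences were 0.317 points (-0.552 to 0.972) and 0.440 points (-0.285 to 0.974). The backgrounds in the fed list were 5.28% and 3.01%. Neither difference can be told from 0 at these counts.

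Hepatocyte CREB went the other way. The untreated list met 14.0% of 24 h only and 19.4% of fed only regions (background in the fed list 57.3%), and the glucagon list met 11.7% and 15.3% (background 46.2%). The list of glucagon and corticosterone met 16.7% and 24.4% (background 58.9%), the largest of the 3 differences at -7.72 points (-10.8 to -4.77). No such contrast was detectable when the weaker 24 h regions were set aside by z-score. This step takes the z-scores of the fed and 24 h lists as on the same scale, which is not stated. The 999 of the 24 h only regions at or above a z-score of 10.9 had the same median z-score as the 1011 fed only regions, 12.6, and shares of 19.7%, 15.7% and 22.4%. Their differences from fed only regions were 0.333 points (-3.13 to 3.80), 0.384 points (-2.79 to 3.56) and -2.01 points (-5.70 to 1.70). The 999 regions were also the wider ones (medians 526 and 380 bp), and hepatocyte CREB was not compared at like width here. The part of width in the smaller differences was not tested.

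The excess of fasted liver CREB and GR was still present in the same comparison. Fasted liver CREB was in 6.01% of these 999 regions, a difference of 4.13 points (2.45 to 5.91) from the 1.88% in fed only regions. GR was in 3.80%, a difference of 2.62 points (1.27 to 4.08) from 1.19%. For fed liver CREB the difference was 1.64 points (-0.156 to 3.48). The 999 regions were wider than the fed only regions, with medians of 526 and 380 bp. In windows of 500 bp around the midpoints, which give all regions 1 width, fasted liver CREB was in 5.71% (4.43 to 7.32%) and 1.88% (1.21 to 2.92%), and GR in 3.50% (2.53 to 4.83%) and 1.38% (0.827 to 2.31%).

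**Figure D4:**
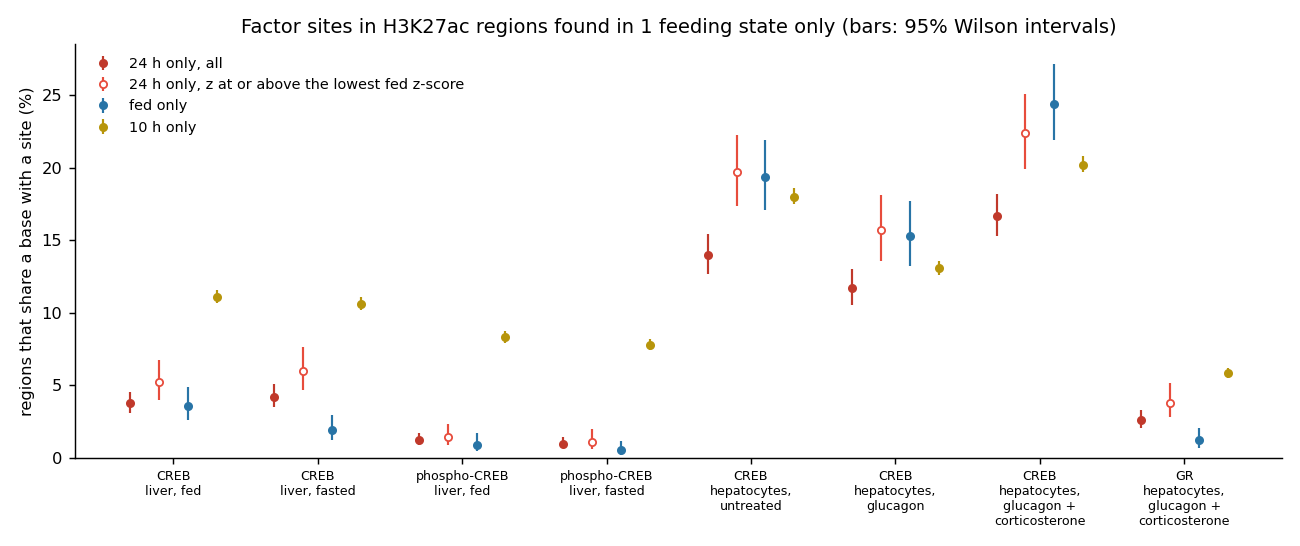
Share of regions with at least 1 base in common with a site (vertical axis, percent) for the 8 factor lists, in regions of 1 feeding state only; points are shares, bars are 95% Wilson intervals, and open points are the 999 of the 24 h only regions with a z-score of at least 10.9. The open points lie level with the fed only points in the hepatocyte CREB lists and above them for fasted liver CREB (6.01% and 1.88%) and GR (3.80% and 1.19%). Whole regions are compared, and the classes are not matched for width.

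Against 10 h only regions, 24 h only regions had fewer sites in all 8 lists. The gap was widest for the liver lists. Fed liver CREB met 3.74% against 11.1% (background in the 10 h list 15.7%) and fasted liver CREB 4.21% against 10.6% (background 13.6%). Phospho-CREB met 1.21% against 8.32% in its fed list (background 6.59%) and 0.935% against 7.78% in its fasted list (background 4.98%). For GR the shares were 2.57% and 5.81% (background 7.38%). The hepatocyte CREB lists differed less, with 14.0% against 18.0% untreated (background 42.0%), 11.7% against 13.1% for glucagon (background 33.2%) and 16.7% against 20.2% for glucagon and corticosterone (background 43.6%). The difference for glucagon was -1.40 points, with an interval that ends just below 0 (-2.69 to -0.0208). The 10 h list is the longest of the 3, with the lowest z-score of the 3, and the 10 h only regions make up 39.5% of it, so the classes differ in more than fasting time and these cannot be told apart.

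CREB sites in 24 h only regions were absent from the untreated hepatocyte list more often than those in regions of all 3 H3K27ac lists. A CREB site of at least 1 hepatocyte list was found in 503 of the 24 h only regions, and 143 of these (28.4%, 24.7 to 32.5%) had it only in a hormone-treated list and not in the untreated list. In the class of all 3 H3K27ac lists this was 11.4% (10.9 to 11.8%), a difference of 17.1 points (13.3 to 21.2). Regions shared with the 10 h list alone were like the 24 h only regions, with 25.7% (23.7 to 27.9%). The share was not computed for fed only regions or for those shared with fed alone. Of the fed only regions, 247 met the list of glucagon and corticosterone and 196 the untreated list. In 24 h only regions the most frequent form was a site in the list of glucagon and corticosterone alone, with 87 of the 503 (17.3%). In the class of all 3 lists this form made up 7.47%. All 3 hepatocyte CREB lists were met by 232 of the 503 (46.1%), against 65.8%.

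The same held at GR sites. An untreated CREB site was present in 43 of the 66 regions of the 24 h only class with GR (65.2%, 53.1 to 75.5%) and in 89.2% (87.8 to 90.4%) of GR regions in the class of all 3 lists. The regions with GR were not compared at like width. Among all regions with a hepatocyte CREB site, width moved with the share without an untreated site. In regions of at most 500 bp this share was 27.5% in the 24 h only class and 18.8% in the class of all 3 lists. That is a smaller difference of 8.66 points (3.71 to 14.1). With the 3 hepatocyte CREB lists cut to equal length by density the shares were 30.5% and 11.3%. The untreated list comes from 1 sample, and the part of this in these values was not tested.

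**Figure D5:**
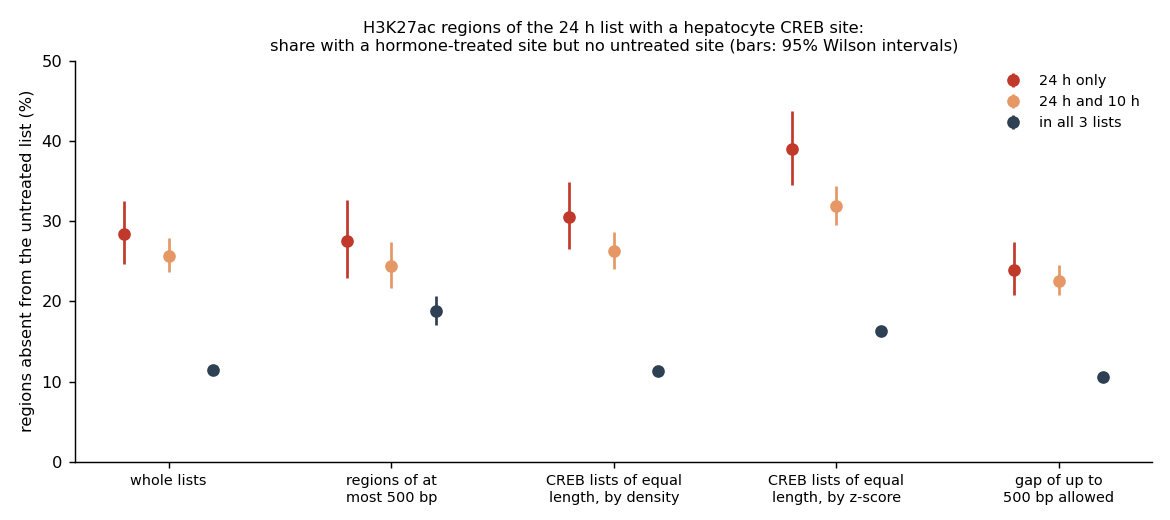
Among H3K27ac regions of the 24 h list with a hepatocyte CREB site of any list, the share (vertical axis, percent) that had no site in the untreated list, for 3 classes of region and 5 ways of comparing the lists; points are shares and bars 95% Wilson intervals. The 24 h only regions lie above the class of all 3 lists in each comparison, with 28.4% and 11.4% for the whole lists, and least so in regions of at most 500 bp.

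Seen from the factors, the 24 h only regions held few sites but not weak ones. They took in between 0.338% (phospho-CREB of fasted liver, 23 of 6812 sites) and 1.02% (CREB of glucagon-treated hepatocytes, 287 of 28229) of each list. All regions of the 24 h list together took in 13.1% and 50.5% of the sites in the same lists. The 24 h only regions cover 1.09 Mb of the 37.0 Mb of that H3K27ac list. The median density percentile of the sites in 24 h only regions, within their own list, ran from 65.3 for CREB with glucagon to 90.7 for phospho-CREB of fasted liver. Sites in any region of the 24 h list had like medians, 63.9 and 90.6 in the same lists. For fasted liver CREB the sites in 24 h only regions ranked lower, with a median percentile of 66.5 against 74. GR sites had a median percentile of 83.3 against 81.0.

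A few of the strongest CREB sites lay under 24 h only regions of low density. They were 2 of the 100 densest sites in each liver and each hepatocyte CREB list. The like count over all regions of the 24 h list was not made. The region chr10:77875276-77875553, of 278 bp, had an H3K27ac density of 8.67 (rank 24654 of 32103) and a z-score of 9.24. Within it CREB had densities of 435 in fed liver (rank 56 of 13142) and 522 in fasted liver (rank 24 of 11339). In hepatocytes the site ranked 17 untreated, 4 with glucagon and 19 with both hormones, and phospho-CREB ranked 30 in fed and 108 in fasted liver. GR was absent from its list there. CREB was thus listed there in every state and treatment mapped, while the H3K27ac region was listed at 24 h only. Its z-score of 9.24 was below the lowest of the fed list, 10.9, and above the lowest of the 10 h list, 7.72. Whether acetylation differed there between feeding states was not tested. The region chr3:84618919-84619582 also held a strong CREB site, at rank 44 in fed and 40 in fasted liver. Its H3K27ac density was 9.70 and its z-score 17.1. It lay 497 bp from a fed and 417 bp from a 10 h region and held no phospho-CREB site.

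Dense GR sites lay in other 24 h only regions. In chr2:167600823-167601424, GR had a density of 75.1 (rank 65 of 11892). CREB was listed there in all 3 hepatocyte conditions, at rank 5607 of 47596 untreated, 973 of 28229 with glucagon and 114 of 42090 with both hormones. Each rank places the site within its own list, and ranks from lists of different lengths show no change. In liver, CREB was listed in fasted mice (density 13.2, rank 3739) and not in fed mice. The H3K27ac region itself, with density 39.5 and z-score 18.2, was among the 10 densest of the class. The region with the densest GR site, chr9:48406574-48407168, had a GR density of 85.6 (rank 46). CREB was again listed in all 3 hepatocyte conditions, and in fasted liver (density 9.27, rank 5261) but not in fed liver.

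All 8 factor lists were met by 1 of the 24 h only regions, chr10:79603475-79604142, with H3K27ac density 28.5 and z-score 25.7. Its CREB sites ranked 541 in fed and 454 in fasted liver, and its GR site ranked 3357. A further 5 regions met 7 lists, chr10:77875276-77875553 among them. None of the 5 held GR, and their CREB ranks in fasted liver ran from 24 to 3159.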

How the data were processed

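Peak lists of chromatin immunoprecipitation with sequencing were used as deposited. Per the submitters' processing notes, CASAVA 1.8 and build mm9 were used, and the list names speak of hotspot calling and, for H3K27ac, of 3 pooled libraries, while the names of factor lists give 2 libraries of the group (for untreated hepatocytes, 1 against itself). For the aligner, caller version and filters: not given in the sources used here. Per the file headers, the authors made with their peak caller a density signal for each region, a score (z-score) and a p-value. The p-value was not used, and density, of unstated normalisation, was compared only within a list. Of 13 lists, 2 (8 value columns) had no matching sample and were left out, and 4 groups (10 samples of C/EBPb or GR in liver) were not analysed here.

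Regions sharing at least 1 base were counted as overlapping, with positions taken as inclusive. No region left out shared exactly 1 base, so a half-open reading keeps the same members. Named regions were the 10 densest, the 5 highest z-scores, the 3 widest, the 5 on most factor lists, the 3 of smallest gap and those on each factor list's densest site. The members and lists were chosen with earlier results of these data known. With 1 list per group no test was run; background shares and intervals stand in. No genome or annotation of mm9 was used, so no genes, motifs or sequences are given. Overlap counting was tested on simulated lists. Software was Python 3.11.15 with pandas 2.3.3, numpy 2.4.6, matplotlib 3.10.9 and SciPy 1.17.1. Alternatives covered the overlap, list length, z-score, window, width and chromosomes X and Y.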

Additional observations from a re-analysis of the deposited data

How the results depend on the processing

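The number of 24 h only regions stayed within 1.5 times of 2567 when sharing required 50% of the shorter region, when a gap of 500 bp counted as sharing, with lists of equal length by density or z-score, and without X and Y. It was 588 from the upper 50% of each list and 999 at z-scores of at least 10.9, where the medians were 526 bp, density 8.61 and z-score 12.6. Shares are given in the order liver CREB fed and fasted, phospho-CREB fed and fasted, hepatocyte CREB untreated, glucagon and both hormones, then GR. With 50% overlap they were 2.57%, 2.88%, fed phospho-CREB within its interval, 0.545%, 9.31%, 7.52%, 12.2% and 1.71%. With a gap of 500 bp they were 5.41%, 6.04%, 1.79%, 1.40%, 19.1%, 15.6%, 21.2% and 4.01%. At z-scores of at least 10.9, those outside their intervals were 5.21%, 6.01%, 19.7%, 15.7%, 22.4% and 3.80%, all but phospho-CREB. With H3K27ac lists of equal length by density, fed CREB was 4.86%, hepatocyte CREB 18.5%, 15% and 21.6%, and GR 3.55%. By z-score hepatocyte CREB was 18.6%, 14.7% and 21.0%, and GR 3.44%. In the upper 50% of factor lists, fasted CREB was 3.47% and hepatocyte CREB 10.8%, 8.30% and 12.3%. In regions of at most 500 bp, an alternative added after the data were seen, untreated CREB was 12.3% and CREB with both hormones 14.8%. Without X and Y fasted phospho-CREB was 0.610%. The 500 bp window moved none of the 8 shares beyond its interval, nor did removing regions within 500 bp of the other lists, which was added after the data were seen.

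The share of hepatocyte CREB regions without an untreated site, tried under alternatives added after the data were seen, was 39.0% in 24 h only regions, 31.9% in those shared with 10 h alone and 16.3% in all 3 lists with CREB lists of equal length by z-score. Allowing 500 bp between region and site gave 23.9%, 22.6% and 10.6% in the same order, and in regions of at most 500 bp it was 18.8% in all 3 lists. The causes were not tested. No paired analysis was possible because each group has 1 list and no result comes from a test. With no read counts, what depth limits could not be measured.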

Other observations

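The densest 24 h only regions had little in common with those of highest z-score. The densest, chrY:2884602-2884982, had density 67.0 and z-score 8.85, rank 31297 of 32103 by z-score, and lay 401 bp from a fed and 435 bp from a 10 h region. Of the 10 densest, 5 lay in 58.7 kb of chromosome 11 (chr11:3041207-3099896), a stretch singled out after its values were seen. Their densities were 32.0 to 51.8 and their z-scores 9.06 to 12.6. The fed list held 9 regions in this stretch, the 10 h list 6 and the 24 h list 14. All 11 lists had regions there. CREB had 10 sites in fed and 3 in fasted liver, and phospho-CREB 7 in fed and 2 in fasted liver. The hepatocyte CREB lists and the GR list had 4 each. Whether these counts reflect the feeding state was not tested.

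On chromosomes X and Y, the 108 regions that were 24 h only had lower shares than the 1072 regions of the whole 24 h list there, in each of the 8 factor lists. For hepatocyte CREB the shares were 6.48% against 36.8% untreated, 7.41% against 26.9% with glucagon and 9.26% against 36.4% with both hormones. For GR they were 1.85% and 12.7%. Fed and fasted liver CREB met 9.26% against 36.5% and 13% against 34.4%, and fed and fasted phospho-CREB 7.41% against 25.8% and 8.33% against 23.4%.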
